A study of Mus musculus with 18 samples.

Results

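The average effect of bexarotene on brain microglia and macrophages was measured over 3 settings: young mice, aged mice without stroke and aged mice with stroke. Bexarotene is a synthetic agonist of the retinoid X receptor (RXR). All 18 libraries of the series entered 1 model, in which the setting was a block and the drug was the tested factor, so that 9 bexarotene libraries were set against 9 vehicle libraries. Of 57010 genes in the count table, 15528 passed the filter on low counts and were tested. All mice were wild-type males. Young mice were 2 to 4 months old and aged mice 18 to 20 months old. Stroke was made by middle cerebral artery occlusion (MCAo), and the labels do not give the surgery of the mice without stroke. Mice were dosed into the peritoneum with 5 mg/kg of bexarotene, starting at 24 hours from surgery and repeated daily over 2 days, while controls received 3% DMSO in saline as vehicle. Cells were collected on day 3, cleared of Ly6G-positive cells (neutrophils) and enriched for CD11b with beads, and each of the 6 groups had 3 libraries, which the labels call biological replicates.

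RXR is a nuclear receptor that binds DNA as a dimer with a partner such as the liver X receptor (LXR), the retinoic acid receptor (RAR) or a peroxisome proliferator-activated receptor (PPAR). Dimers with LXR or PPAR can be switched on from the RXR side, and LXR-RXR drives genes that export cholesterol, RAR-RXR genes of the retinoic acid response, and PPAR-RXR genes of fatty acid use. Microglia and macrophages take up myelin and cell debris, and the cholesterol they ingest leaves the cell through ABC transporters.

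Library totals were 7582511 to 29359943 counts, with the 6 stroke libraries above all others. The 18 homeostatic microglia genes summed to 61440 to 85230 CPM (counts scaled to the library's tested genes and the TMM factor) in the 12 libraries without stroke and to 28130 to 35850 CPM in the 6 with stroke. On principal component 1, with 56.6% of the variance, stroke libraries lay at 93.5 to 121 and the others at -72.3 to -39.2. Markers of other cells varied between libraries of 1 group. The 12 choroid plexus markers summed to 444 to 2732 CPM in young vehicle, 276 to 2202 CPM in young bexarotene, 218.5 to 2814 CPM in aged vehicle and 541 to 1864 CPM in aged bexarotene libraries. With stroke the same sum was 967 to 3377 CPM with vehicle and 148 to 750.3 CPM with bexarotene, so the groups did not overlap there. None of the 12 markers passed the test in the common effect, all 12 had a log2 fold change below 0, and their median was -0.87. The 12 neutrophil markers summed to 684 to 952.7 CPM in aged vehicle and 1075 to 2095 CPM in aged bexarotene libraries, while the arms overlapped in young mice (856 to 1791 and 781 to 1845 CPM) and with stroke (1089 to 2611 and 990.0 to 3790 CPM). None passed the test, 10 of 12 were above 0, and their median was 0.74 (-0.14 in young, 1.65 in aged and 0.53 in aged stroke mice). With the choroid plexus marker mean as a covariate 497 genes were called in the common effect, 288 of them among the 320 called without it, and with the neutrophil mean 272, of them 247. The part of these cells in single results was not tested further.

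Bexarotene changed 320 of 15528 genes (2.06%) at an adjusted p under 0.05, by the quasi-likelihood test of edgeR, adjusted by Benjamini-Hochberg (BH) across all tested genes. Of these, 201 rose (1.29%) and 119 fell (0.766%). Without adjustment, 1955 genes (12.6%) had a p under 0.05 by the same test. Among the genes with the lowest p were Abcg1, a cholesterol exporter, St3gal5, which makes the ganglioside GM3, Mmd, named for the step from monocyte to macrophage, and Rnf145, a ubiquitin ligase of the endoplasmic reticulum. The lowest p among the falls belonged to Gpr183, a receptor for oxysterols. Most changes were small. The median log2 fold change was 0.53 among the rises and -0.37 among the falls, against 0.00 over all genes tested, and 37 rises and 10 falls exceeded 2-fold. A further 112 rises and 95 falls were below 1.5-fold. Of the called genes, 30 rises and 10 falls stayed under 10 CPM in the higher drug arm. All 320 had the same sign in each of the 3 settings, as had 36.8% of all genes tested. This count is not independent of the call.

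The common model resolved smaller effects than a single setting. Its median standard error (SE) was 0.12 on the log2 scale, against 0.20 in each of the 3 single settings. The single settings called 65 rises and 14 falls in young mice (0.419% and 0.0902% of genes, 0.509% in all), 37 and 3 in aged mice (0.238% and 0.0193%, 0.258% in all), and 8 and 1 in aged mice with stroke (0.0515% and 0.00644%, 0.058% in all). Of the common calls, 136 rises and 107 falls were called in no single setting. The 6 genes called in all 3 settings all rose, and they included Abcg1, St3gal5, Mmd, Rnf145 and Epha2. In 72 of the 201 rises every bexarotene library lay above every vehicle library of its setting in all 3 settings, and in 22 of the 119 falls every bexarotene library lay below. Over all genes tested these patterns held in 0.496% and 0.167%. The plot of effect against expression level shows the small size of most called changes.

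**Figure D1:**
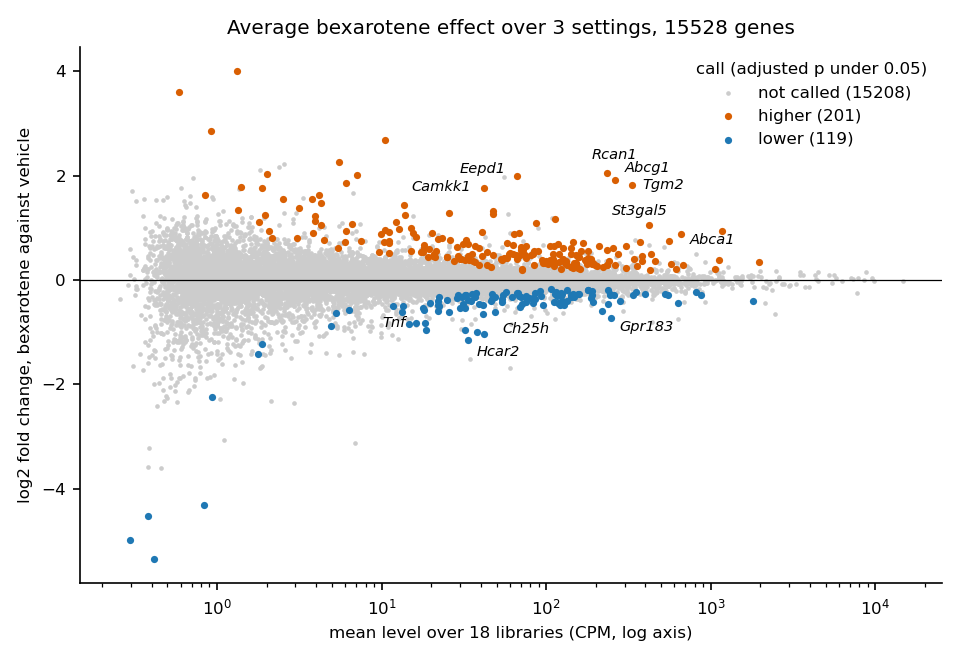
Log2 fold change of bexarotene against vehicle, averaged over 3 settings, plotted against the mean level in 18 libraries (CPM, log axis); each point is 1 of 15528 genes, orange for the 201 called higher and blue for the 119 called lower. Most called genes lie within 1 log2 unit of 0, and the far points at around 1 CPM rest on few counts.

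The fit without aged bexarotene library 3 called 209 genes, and the fits without each of the other 17 libraries called 215 to 308. In all 18 of these fits 136 rises and 43 falls kept their call. Without the young libraries 51 genes were called, without the aged libraries 92 and without the stroke libraries 289. The calls kept in each of those 3 fits numbered 40 rises and 3 falls. Of the called genes described here, those called in all 3 fits were Abcg1, St3gal5, Mmd, Rnf145, Epha2, Camkk1, Abca1, Rasgef1b, N4bp2l1, Hbegf, Gpr183, Tgm2, Lfng, Arl4c, Engase, Tcim, Adap2, Med22, Cttnbp2nl, Tmem86a, Dhrs3, Cryba4, Ap5s1, Irak2, Abcd2, Mylip, Rcan1 and Hcar2. Hic1, called in the other 2, did not pass the filter on low counts without the stroke libraries, nor Hhip in any of the 3 fits. All others described lost their call in at least 1 of them.

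The cholesterol exporter genes Abcg1 and Abca1 rose. Of 22 measured LXR-RXR targets, 7 rose and none fell, with a median log2 fold change of 0.12 (0.00 over all genes tested). Over all genes tested 1.29% rose and 0.766% fell. This list and those below were chosen with earlier results of these data known. Abcg1, which passes cholesterol to high-density lipoprotein, was measured at 102, 105 and 104 CPM with vehicle and 428, 466 and 563 CPM with bexarotene in young mice, 99.4, 100.3 and 87.7 CPM with vehicle and 383, 453 and 514 CPM with bexarotene in aged mice, and 126, 112 and 141 CPM with vehicle and 268, 297 and 357 CPM with bexarotene in aged mice with stroke. The bexarotene libraries lay above the vehicle libraries in each setting, and those of stroke mice were the lowest of the treated libraries. The rise was 3.77-fold (log2 fold change 1.91 ± 0.13 SE, n = 9 libraries per arm, adjusted p = 2.92e-07, by edgeR quasi-likelihood after BH). Abca1, which loads cholesterol onto apolipoprotein A-I, was measured at 568, 425 and 403 CPM with vehicle and 1056, 858 and 1101 CPM with bexarotene in young mice, 499.9, 466 and 410.2 CPM with vehicle and 901, 774 and 992 CPM with bexarotene in aged mice, and 423, 458 and 510.2 CPM with vehicle and 631, 661 and 781 CPM with bexarotene in aged mice with stroke. Its groups did not overlap in any setting, and its log2 fold change was 0.88 ± 0.09 (adjusted p = 1.03e-05). Abcg1 had a log2 fold change of 2.23, 2.23 and 1.28 in young, aged and aged stroke mice, and Abca1 one of 1.11, 0.96 and 0.58.

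Rnf145, a ubiquitin ligase that takes part in the control of cholesterol synthesis, was measured at 213, 263 and 249 CPM with vehicle and 399, 395 and 389 CPM with bexarotene in young mice, 207, 226 and 212 CPM with vehicle and 305, 365 and 312 CPM with bexarotene in aged mice, and 148, 142 and 139.5 CPM with vehicle and 194, 202 and 233 CPM with bexarotene in aged mice with stroke. No treated library overlapped the vehicle libraries of its setting (log2 fold change 0.62 ± 0.05, adjusted p = 8.57e-07, edgeR quasi-likelihood with BH). Eepd1, a protein linked to the retention of ABCA1 at the cell surface of macrophages, stood at 24.5, 30.8 and 24.3 CPM with vehicle and 191, 100.5 and 182 CPM with bexarotene in young mice, 18, 21 and 22.4 CPM with vehicle and 88, 113 and 145 CPM with bexarotene in aged mice, and 30.7, 22.7 and 26.5 CPM with vehicle and 33.9, 65.7 and 53 CPM with bexarotene in aged mice with stroke. Here too the groups were apart in each setting, by little in stroke mice, where the lowest treated library was at 33.9 CPM and the highest vehicle library at 30.7 CPM. Its log2 fold change was 1.99 ± 0.26 over all and 2.58, 2.49 and 0.93 by setting. Eepd1 lost its call without the young libraries and without the libraries numbered 2, with an adjusted p of up to 0.0588 (edgeR with BH). Mylip, the ubiquitin ligase that marks the LDL receptor for breakdown, rose from a mean of 241 to 371 CPM (0.65 ± 0.09), and Arl4c, a small GTPase, from 48.5 to 77.7 CPM (0.68 ± 0.08). Both had groups apart in all 3 settings. Lpcat3, which puts polyunsaturated chains into phospholipids, rose by 0.22 ± 0.05 and lost its call in 7 of the 18 fits without 1 library, with an adjusted p of up to 0.0589 (without aged vehicle library 2).

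Other LXR-RXR targets did not pass the test. Srebf1, the master regulator of fatty acid synthesis, was at 0.15 ± 0.07 (adjusted p = 0.360), its target Fasn at -0.04 ± 0.14 (adjusted p = 0.942), the desaturase gene Scd2 at -0.41 ± 0.12 (adjusted p = 0.0774), and the lipid carrier Apoe at 0.09 ± 0.14 (adjusted p = 0.858), all by edgeR with BH. Scd2 was called lower in 5 of 33 alternatives, DESeq2 among them. Without the stroke libraries it was at -0.62 (adjusted p = 0.00265, edgeR with BH), and in the stroke libraries alone at -0.03. Apoe varied between libraries of 1 group, for example 2035, 4955 and 3953 CPM in aged vehicle mice. The 16 genes of fatty acid synthesis had 0 calls by edgeR, 6 at an unadjusted p under 0.05, and a median of -0.12, and DESeq2 called 1 of them lower. The 24 genes of cholesterol synthesis and uptake had 0 calls, 1 at an unadjusted p under 0.05, and a median of -0.01. Such an unadjusted p was seen in 12.6% of all genes tested by edgeR.

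The promoters of called genes were searched for the LXR-RXR element, because 7 of 22 measured LXR-RXR targets rose. The element is a direct repeat of the half-site AGGTCA with 4 bases between the copies, read as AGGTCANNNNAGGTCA on both strands in the 250 bases before each start. Sequences come from RefSeq on build GRCm38.p6, and 149 of the 201 rises and 88 of the 119 falls had an entry. With up to 2 mismatches in the 12 fixed letters, the element was in 9 of 209 promoters of the rises (4.31%), in 3 of 124 of the falls (2.42%) and in 1.93% of all 13139 promoters of tested genes. With up to 3 mismatches, a limit chosen after the sequences were seen, the shares were 17.2%, 15.3% and 15.5%. The repeat with 1 base between the copies, typical of PPAR-RXR, was in 1.91%, 1.61% and 2.52% at 2 mismatches, and that with 5 bases, typical of RAR-RXR, in 0.957%, 0.806% and 1.78%. Abca1 has 3 mismatches, at bases -67 to -52 from its start (minus strand, chr4:53159905-53160004). Arl4c has 3 at bases -75 to -60 (minus strand, chr1:88702209-88702308), Rnf145 has 3 at bases -92 to -77 of the start listed as its number 3 (plus strand, chr11:44520155-44520254), and Epha2 has 2 at bases -31 to -16 (plus strand, chr4:141301148-141301220). Dhrs3 has 3 at bases -35 to -20 of the start listed as its number 3 (plus strand, chr4:144893060-144893136). A match is a description of the letters and not a measured binding site. Of 18 named genes looked up for display 15 had an entry (Abcg1, Tgm2 and Gramd1b had none). In 10 of the 15, Mylip, Eepd1, Lpcat3, St3gal5, Mmd, Camkk1, Lfng, Rasgef1b, Gpr183 and Cpt1a, these letters were not found within 3 mismatches at any listed start. The 5 with a match are shown 5′ to 3′ on the strand of the gene, because a match was found and for no other reason, with the paired half-sites in capitals:
Abca1: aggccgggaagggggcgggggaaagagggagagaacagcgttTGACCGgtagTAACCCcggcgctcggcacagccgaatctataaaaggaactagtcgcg
Arl4c: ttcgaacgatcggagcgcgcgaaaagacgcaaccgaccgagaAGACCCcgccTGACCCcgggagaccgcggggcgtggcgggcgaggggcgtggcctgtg
Rnf145: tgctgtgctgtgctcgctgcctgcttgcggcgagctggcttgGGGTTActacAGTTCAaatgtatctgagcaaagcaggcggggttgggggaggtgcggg
Epha2: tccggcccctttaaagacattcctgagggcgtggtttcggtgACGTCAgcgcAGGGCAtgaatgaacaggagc
Dhrs3: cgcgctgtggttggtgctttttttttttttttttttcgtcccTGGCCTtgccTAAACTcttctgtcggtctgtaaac

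In Abca1, Arl4c and Dhrs3 the repeat was found on the strand opposite to the gene, and in Rnf145 and Epha2 on the strand of the gene.

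Some retinoic acid response genes rose. Of 8 measured RAR-RXR targets 3 rose and none fell (1.29% and 0.766% of all genes tested), with a median log2 fold change of 0.32. Tgm2, a transglutaminase long known as a gene induced by retinoic acid, was at 74.8, 79.7 and 78 CPM with vehicle and 294, 316 and 420.4 CPM with bexarotene in young mice, 83.3, 79.8 and 86 CPM with vehicle and 365, 378 and 357 CPM with bexarotene in aged mice, and 439, 238 and 359.5 CPM with vehicle and 645, 1192 and 503 CPM with bexarotene in aged mice with stroke. The groups were apart in every setting, although the treated young and aged libraries reached levels within the range of the stroke vehicle libraries. The log2 fold change was 1.82 ± 0.19 (adjusted p = 4.63e-05, edgeR quasi-likelihood with BH). Dhrs3, which reduces retinaldehyde to retinol and so lowers retinoic acid, was at 202, 218 and 221 CPM with vehicle and 260.0, 278 and 294 CPM with bexarotene in young mice, 225, 252 and 276 CPM with vehicle and 297, 312 and 307 CPM with bexarotene in aged mice, and 179.8, 152 and 186 CPM with vehicle and 237, 241 and 232 CPM with bexarotene in aged mice with stroke. Its rise was small and held in each setting without overlap (0.37 ± 0.05). Hic1, a zinc finger repressor, was expressed with stroke, at 5.8, 3.96 and 4.94 CPM with vehicle and 25.6, 37.5 and 17.1 CPM with bexarotene. In the 12 libraries without stroke it was at 0 to 0.924 CPM, near the level of 3 counts (0.253 to 0.396 CPM there), so its fitted average (2.27 ± 0.35) rests on the stroke libraries. Cd38, which consumes NAD, missed the threshold (0.99 ± 0.25, adjusted p = 0.0501, edgeR with BH), with a log2 fold change of 1.38, 1.66 and 0.00 in young, aged and aged stroke mice. It was called higher in 8 of 33 alternatives, DESeq2 among them. Without the stroke libraries it was at 1.51 (adjusted p = 0.000128, edgeR with BH).

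Genes of fatty acid use showed 3 rises among 22 measured PPAR-RXR targets, no fall, and a median of 0.11 (over all genes tested 1.29% rose). Cpt1a, which admits fatty acids to mitochondria, was at 60.9, 54.6 and 60.7 CPM with vehicle and 106, 79.7 and 112 CPM with bexarotene in young mice, 52.2, 43.8 and 49.9 CPM with vehicle and 81, 70.8 and 85.2 CPM with bexarotene in aged mice, and 127, 112 and 109 CPM with vehicle and 107, 151 and 142 CPM with bexarotene in aged mice with stroke. The groups were apart in young and aged mice and overlapped with stroke (0.55 ± 0.09 over all, 0.76, 0.70 and 0.20 by setting). Without the young libraries and without the aged libraries it lost its call. Slc25a20, which carries acylcarnitines across the inner mitochondrial membrane, rose from 28 to 36.4 CPM (0.39 ± 0.09). Angptl4, a secreted inhibitor of lipoprotein lipase, was mainly seen with stroke, at 10.9, 5.0 and 4.99 CPM with vehicle and 22.5, 24.5 and 28.5 CPM with bexarotene, and at 0.0978 to 3.39 CPM elsewhere (1.86 ± 0.31). Angptl4 lost its call without the stroke libraries, and Slc25a20 without the libraries of any 1 setting. The scavenger receptor Cd36 (0.23 ± 0.10, adjusted p = 0.339), the oxidation enzyme Acadm (0.16 ± 0.04, adjusted p = 0.0760) and the lipid droplet protein Plin2 (0.43 ± 0.14, adjusted p = 0.171) did not pass the test by edgeR with BH.

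No gene of the receptors themselves passed the test. Among 20 measured genes of RXR and its partner receptors edgeR called 0, with a median of 0.02. By edgeR 1 of them had an unadjusted p under 0.05, as had 12.6% of all genes tested. DESeq2 and limma voom also called 0. Rxra, which encodes the main RXR of macrophages, was at -0.19 ± 0.06 (adjusted p = 0.155), Rxrb at 0.01 ± 0.06 (adjusted p = 0.963), Nr1h2, which encodes LXR beta, at 0.07 ± 0.05 (adjusted p = 0.629), and Nr1h3, which encodes LXR alpha, at -0.17 ± 0.26 (adjusted p = 0.859), by edgeR with BH. Nr1h3 was low, at a mean of 4.98 with vehicle and 4.56 CPM with bexarotene.

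Outside the target lists the rises reached genes of lipid, kinase and growth factor biology. St3gal5, the enzyme that makes ganglioside GM3, stood at 304, 378 and 329 CPM with vehicle and 758, 721 and 815 CPM with bexarotene in young mice, 286, 278 and 310.2 CPM with vehicle and 576, 706 and 758 CPM with bexarotene in aged mice, and 176, 172 and 159 CPM with vehicle and 264, 250.5 and 346 CPM with bexarotene in aged mice with stroke. Its level was lower with stroke in both arms, and treated and vehicle libraries did not overlap in any setting (1.06 ± 0.08, adjusted p = 2.92e-07, edgeR quasi-likelihood with BH). Mmd, a membrane protein of the progestin and adipoQ receptor family, stood at 21.4, 22 and 17.5 CPM with vehicle and 47.6, 43.7 and 68.2 CPM with bexarotene in young mice, 28.5, 22.4 and 25.5 CPM with vehicle and 67, 66.5 and 76.1 CPM with bexarotene in aged mice, and 36.1, 38.8 and 43.9 CPM with vehicle and 65.1, 71 and 93.8 CPM with bexarotene in aged mice with stroke. The receptor tyrosine kinase gene Epha2 was at 11.8, 13.2 and 12.8 CPM with vehicle and 44.9, 37.1 and 41.8 CPM with bexarotene in young mice, 19.2, 12.9 and 12.9 CPM with vehicle and 26.2, 40.3 and 36.5 CPM with bexarotene in aged mice, and 17.1, 16.2 and 18.3 CPM with vehicle and 32.8, 31.8 and 36.7 CPM with bexarotene in aged mice with stroke. In both genes every treated library exceeded the vehicle libraries of its setting (1.26 ± 0.11 for Mmd and 1.28 ± 0.11 for Epha2).

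Calcium signalling genes and a growth factor gene were among the 15 largest rises of the rule for named genes. Rcan1, an inhibitor of the phosphatase calcineurin, was at 63.7, 169.8 and 97.6 CPM with vehicle and 939, 551 and 354 CPM with bexarotene in young mice, 71.2, 90.2 and 103 CPM with vehicle and 131, 369 and 456 CPM with bexarotene in aged mice, and 58.3, 62.1 and 64.9 CPM with vehicle and 206, 177 and 280.1 CPM with bexarotene in aged mice with stroke. The groups were apart in each setting, closest in aged mice (2.06 ± 0.27, adjusted p = 4.77e-04, edgeR quasi-likelihood with BH). Camkk1, a kinase that activates other calcium-dependent kinases, stood at 24.1, 14 and 16.4 CPM with vehicle and 94.8, 56.8 and 85.2 CPM with bexarotene in young mice, 28.8, 17.5 and 19 CPM with vehicle and 80.1, 71.4 and 94.2 CPM with bexarotene in aged mice, and 14.9, 19.9 and 11.2 CPM with vehicle and 31.9, 35 and 43.7 CPM with bexarotene in aged mice with stroke. No group overlapped (1.76 ± 0.16). The growth factor gene Hbegf rose from 2.51 to 11.6 CPM (2.02 ± 0.22) with at most 2.83 CPM in any stroke library.

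Tcim, a small regulator of transcription, rose from 7.32 to 20.1 CPM (1.44 ± 0.19), and Lfng, a sugar transferase that modifies Notch receptors, from 69.9 to 157 CPM (1.18 ± 0.13). Gramd1b, which moves cholesterol from the plasma membrane to the endoplasmic reticulum, rose from 7.7 to 16.7 CPM (1.12 ± 0.18), and Rasgef1b, an exchange factor of small GTPases, from 54.9 to 118 CPM (1.10 ± 0.11). All 4 had groups apart in each setting. Jdp2, a repressor of AP-1, rose by 1.33 ± 0.30 and lost its call in 8 of the 18 fits without 1 library. The adjusted p reached 0.0669 (without aged bexarotene library 3, edgeR with BH). N4bp2l1 rose by 0.69 ± 0.07 and the endoglycosidase gene Engase by 0.58 ± 0.07, again without overlap in any setting. The long RNA Bach2os rose by 1.25 ± 0.21 and the gene opposite to it, Bach2, by 0.70 ± 0.12. The sources used here do not say how strand was handled, so their reads could not be told apart. The same holds for Adap2 (0.49 ± 0.06) and Adap2os (0.46 ± 0.08), and the near-identical copies Bcl2a1a (0.50 ± 0.08) and Bcl2a1d (0.48 ± 0.08) may share reads. These 5 besides Bach2os were chosen after their values were seen.

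**Figure D2:**
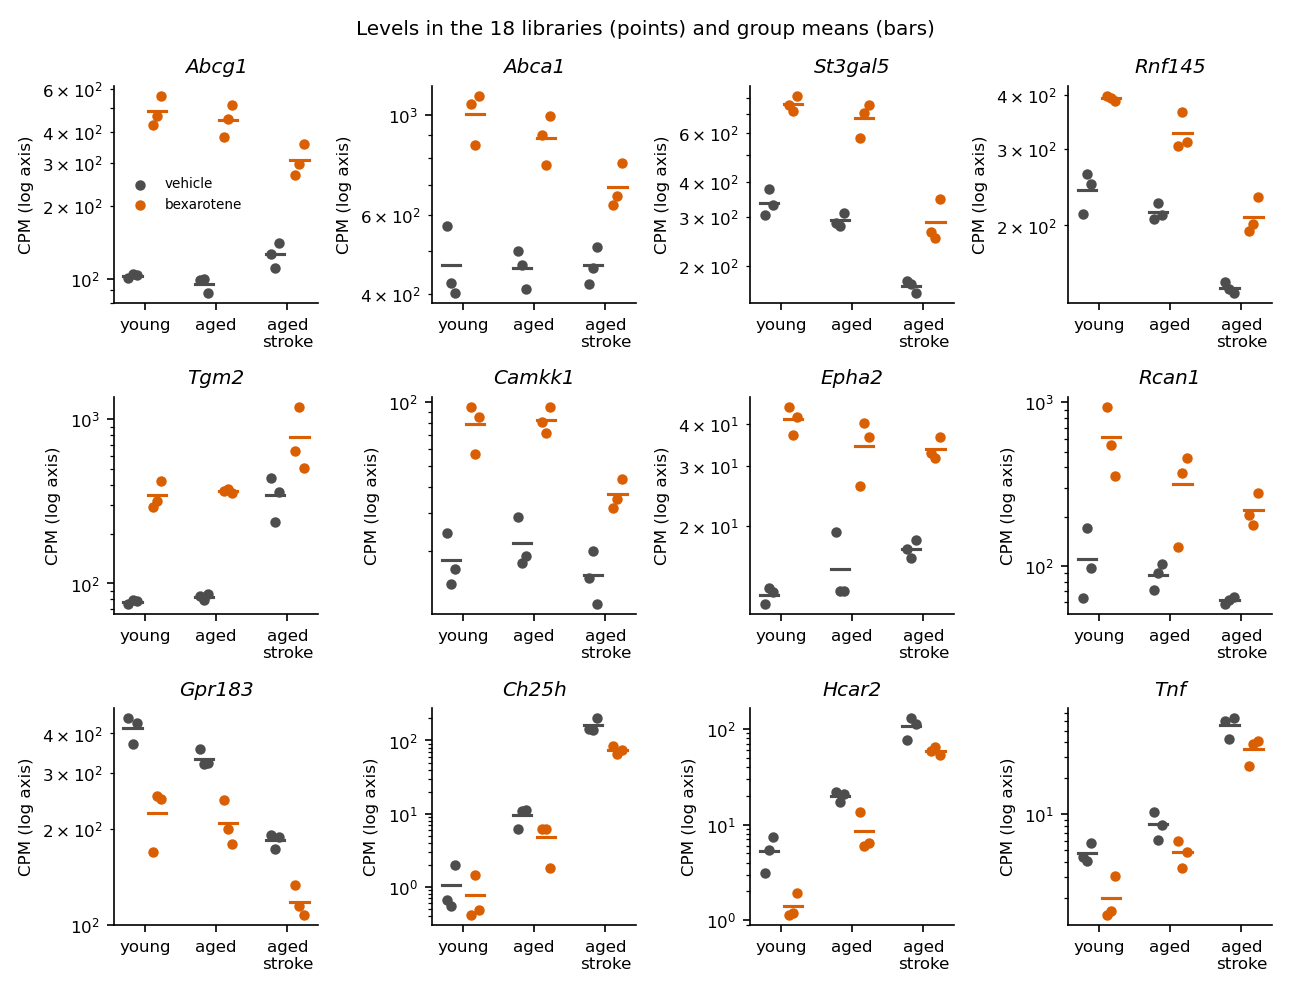
Levels of 12 genes in each of the 18 libraries (CPM, log axis), with vehicle in grey, bexarotene in orange and bars for the means of 3 libraries; the top 2 rows hold genes that rose and the bottom row genes that fell. Bexarotene and vehicle points do not overlap within any setting except for Ch25h in young mice.

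The falls had a smaller median change than the rises. Of 14 genes of cholesterol esters, lipid droplets and oxysterols, 2 fell (Gpr183 and Ch25h) and none rose, with a median of -0.03. Among all genes tested, 0.766% fell and 1.29% rose. Gpr183, the receptor for 7-alpha,25-dihydroxycholesterol that guides cells along oxysterol gradients, was at 448, 371 and 431 CPM with vehicle and 169, 255 and 248 CPM with bexarotene in young mice, 357, 320.1 and 322 CPM with vehicle and 247, 200.2 and 179 CPM with bexarotene in aged mice, and 191, 173 and 189 CPM with vehicle and 133, 114 and 107 CPM with bexarotene in aged mice with stroke. In each setting all treated libraries lay below the vehicle libraries, and the stroke libraries were the lowest in both arms (-0.74 ± 0.08, adjusted p = 1.99e-05, edgeR quasi-likelihood with BH). Ch25h, the enzyme that makes 25-hydroxycholesterol, was at 0.668, 0.539 and 2.01 CPM with vehicle and 0.411, 1.43 and 0.476 CPM with bexarotene in young mice, 6.25, 11 and 11.1 CPM with vehicle and 6.18, 6.2 and 1.82 CPM with bexarotene in aged mice, and 144, 138 and 204 CPM with vehicle and 83.8, 65 and 73 CPM with bexarotene in aged mice with stroke. It was low in young mice, where the groups overlapped, and high with stroke, where they were apart (-1.04 ± 0.21, adjusted p = 0.0135). Ch25h was not called with the 3 settings weighted equally, with no filter on low counts, without the young or the stroke libraries, or without the libraries numbered 2 or 3 (adjusted p of up to 0.401, edgeR with BH).

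Hcar2, the receptor for niacin and the ketone body beta-hydroxybutyrate, stood at 3.15, 5.39 and 7.33 CPM with vehicle and 1.13, 1.19 and 1.91 CPM with bexarotene in young mice, 21.7, 17.2 and 21.1 CPM with vehicle and 13.4, 6.03 and 6.49 CPM with bexarotene in aged mice, and 76.1, 130.4 and 114 CPM with vehicle and 59, 65.1 and 53.8 CPM with bexarotene in aged mice with stroke. In both arms its level was lowest in young mice and highest with stroke, and the treated libraries were the lower ones in each (-1.15 ± 0.19, adjusted p = 0.00178, edgeR quasi-likelihood with BH). The cytokine gene Tnf was at 4.39, 4.05 and 5.76 CPM with vehicle and 1.44, 1.55 and 3.05 CPM with bexarotene in young mice, 10.5, 6.07 and 8.15 CPM with vehicle and 5.97, 3.57 and 4.87 CPM with bexarotene in aged mice, and 59.8, 42.3 and 63.9 CPM with vehicle and 25.4, 38.7 and 40.9 CPM with bexarotene in aged mice with stroke. The groups did not overlap in any setting (-0.82 ± 0.16, adjusted p = 0.00643). Tnf lost its call without the young or the aged libraries and without those numbered 1 or 3, with an adjusted p of up to 0.12. Tnf was the 1 fall and the inflammasome gene Nlrp3 (0.40 ± 0.07) the 1 rise among 18 inflammatory genes. Their median was -0.20 (-0.49 in young, 0.00 in aged and -0.24 in aged stroke mice). Of the 18, 13 lay below 0, and 10 had an unadjusted p under 0.05 by edgeR, as had 12.6% of all genes tested. The shares called over all genes tested were 0.766% for falls and 1.29% for rises. The chemokine Ccl4 (-0.49 ± 0.13, adjusted p = 0.0619) and Tnfaip3, a brake on NF-kappa B (-0.25 ± 0.07, adjusted p = 0.0502), missed the threshold by edgeR with BH. Ccl4 was called lower in 4 of 33 alternatives and Tnfaip3 in 6 of 33, DESeq2 among them for both. Without stroke, Hcar2 reached at most 21.7 CPM and Tnf at most 10.5 CPM.

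Other falls touched sugar chains, channels and receptors. The polysialyltransferase gene St8sia4 fell from 50.8 to 25.1 CPM (-1.0 ± 0.19), the Wnt receptor gene Fzd4 from 25.1 to 12.2 CPM (-0.96 ± 0.18), the potassium channel gene Kcnj2 from 42.5 to 21.6 CPM (-0.96 ± 0.19), and the sulfotransferase gene Chst2 from 20.0 to 12.2 CPM (-0.83 ± 0.18). The groups of these 4 overlapped in at least 1 setting. Arhgap29, which turns off small GTPases, fell from 18.8 to 10.6 CPM (-0.84 ± 0.14) and Spata13, an exchange factor of small GTPases, from 263 to 173 CPM (-0.60 ± 0.09), both without overlap in any setting. The sphingosine 1-phosphate receptor gene S1pr2 fell by 0.62 on the log2 scale, with an SE of 0.14. The guanylate-binding protein gene Gbp5 (-0.60 ± 0.15), the transporter gene Mfsd6 (-0.61 ± 0.16), Zfp658 (-0.62 ± 0.15) and Gm8995 (-0.65 ± 0.15) completed the 15 falls of the named-gene rule, and each of these 4 lost its call in 5 to 14 of the 18 fits without 1 library. Their adjusted p reached 0.0727 without 1 library for Gbp5, 0.107 for Mfsd6, 0.0683 for Zfp658 and 0.0557 for Gm8995 (without aged bexarotene library 3, without aged vehicle library 2, without aged stroke vehicle library 1 and without young bexarotene library 2, respectively), by edgeR with BH.

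Cttnbp2nl fell from 738 to 536 CPM (-0.44 ± 0.06) and was chosen after its values were seen. It and Gpr183 were the falls that stayed called under all 33 alternatives of the common effect, as did 33 rises, among them Abcg1, Abca1, Tgm2, Camkk1, Mylip, Arl4c, Dhrs3, St3gal5 and Hbegf. Fitted falls of about 5 log2 units in Hhip, Adamts2 and Cyp2f2 rest on few counts. Bexarotene libraries held 0 to 0.132 CPM of these genes and vehicle libraries 0 to 3.23 CPM, so no fold is given.

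**Figure D3:**
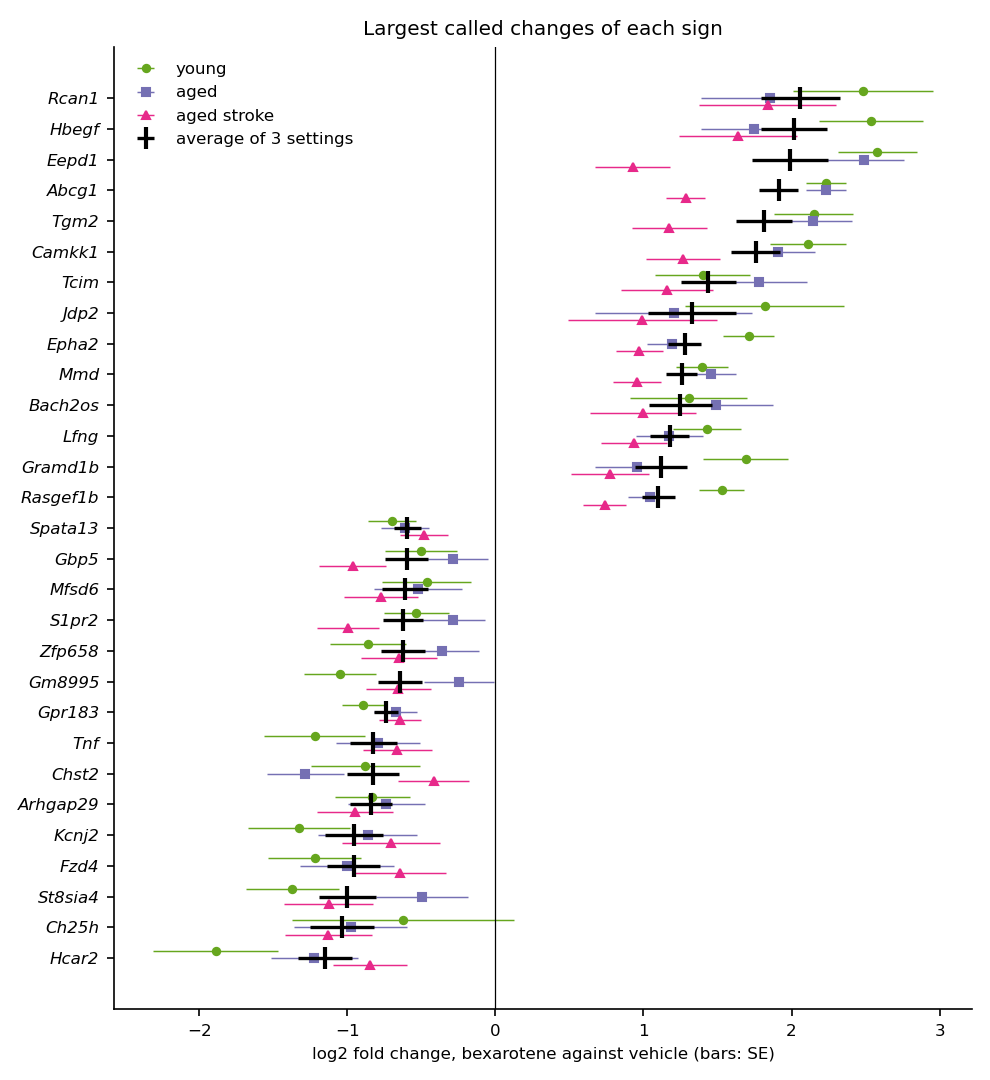
Log2 fold change of bexarotene against vehicle for 14 of the 15 largest called rises and the 15 largest called falls of at least 10 CPM, with bars for the SE; coloured symbols are the single settings (3 libraries per arm) and black marks the average (9 per arm). All symbols of a gene lie on 1 side of 0, which the choice of genes with 1 sign in the 3 settings required. For most rises the stroke symbol is nearest to 0.

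Some genes were called in the common effect and in no single setting, and the 8 of each sign with the lowest p are described here. Among the rises were Med22, a subunit of the Mediator complex (0.42 ± 0.06, 0.45, 0.39 and 0.43 in young, aged and aged stroke mice), and Tmem86a, a lysoplasmalogenase (0.49 ± 0.07, 0.53, 0.41 and 0.55). Cryba4, a crystallin gene, rose by 0.47 ± 0.07 (0.48, 0.47 and 0.46), Ap5s1, an adaptor protein subunit, by 0.77 ± 0.11, Irak2, a kinase of interleukin 1 and Toll-like receptor signalling, by 0.56 ± 0.08, and Abcd2, a peroxisomal transporter of very long chain fatty acids, by 0.56 ± 0.08. Dhrs3 and Mylip belong to this group as well. Med22 was at 179.9, 197 and 186 CPM with vehicle and 280.1, 252 and 237 CPM with bexarotene in young mice, 160.5, 156 and 153 CPM with vehicle and 182, 238 and 194 CPM with bexarotene in aged mice, and 111, 134 and 109 CPM with vehicle and 171, 155 and 151 CPM with bexarotene in aged mice with stroke. The groups were apart in each setting, by 182 against 160.5 CPM at the closest in aged mice.

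The falls of this kind included Azin1, which stabilises ornithine decarboxylase (-0.31 ± 0.05, -0.36, -0.31 and -0.26 by setting), Irf2bpl (-0.48 ± 0.09, -0.51, -0.25 and -0.68 by setting), Inka1 (-0.47 ± 0.09), the acyltransferase gene Lpgat1 (-0.33 ± 0.06) and the mitotic kinase gene Nek6 (-0.34 ± 0.06). Azin1 was at 116, 121 and 125 CPM with vehicle and 101, 92.8 and 88.3 CPM with bexarotene in young mice, 126, 105 and 114 CPM with vehicle and 94, 94.8 and 89.2 CPM with bexarotene in aged mice, and 169, 167 and 186 CPM with vehicle and 137, 145 and 153 CPM with bexarotene in aged mice with stroke. Treated libraries were below vehicle libraries in each setting. Hcar2, with a larger and less even change (-1.89, -1.22 and -0.85 by setting), Arhgap29 and Spata13 were also among the 8 falls of this kind. Azin1, Irf2bpl, Inka1, Lpgat1, Nek6, Spata13 and Arhgap29 lost their call without the young libraries.

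Microglial identity genes moved little. Of 18 homeostatic microglia genes 2 rose, Crybb1 among them, and 1 fell, with a median of -0.02. The fall was that of P2ry13, a nucleotide receptor (from 2074 to 1562 CPM, -0.40 ± 0.08). For comparison, 1.29% of all genes tested rose and 0.766% fell. Crybb1 (0.43 ± 0.11) lost its call in 13 of the 18 fits without 1 library, with an adjusted p of up to 0.0887 (without young bexarotene library 3). P2ry12, Tmem119 and Cx3cr1 were at -0.25 ± 0.09, 0.15 ± 0.07 and -0.13 ± 0.08, none called. Of 23 genes of disease-associated microglia only the chemokine Ccl6 was called (0.74 ± 0.14, from 464 to 655 CPM), with a median of -0.05. Trem2, the receptor that licenses this state, was at 0.04 ± 0.06 (adjusted p = 0.851), and Spp1, which encodes osteopontin, at -0.64 ± 0.34 (adjusted p = 0.473, edgeR with BH). Ccl6 had log2 fold changes of 1.06, 0.97 and 0.20 by setting and lost its call with the replicate number within each setting as a block. In a bulk sample, fewer cells of a type and less RNA per cell cannot be told apart.

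Dab2, an endocytic adaptor, was the 1 fall (-0.41 ± 0.08) among 13 border-associated macrophage genes. None of 16 monocyte and macrophage infiltration genes was called by edgeR, with 0 at an unadjusted p under 0.05 and a median of -0.11. Of all genes tested 0.766% fell, 1.29% rose, and 12.6% had an unadjusted p under 0.05 by edgeR. Slc1a3, a glutamate transporter of astrocytes that is also read in microglia, rose (0.73 ± 0.16), while the other 9 astrocyte genes did not pass the test and the list's median was -0.43. It was at 286, 388 and 353 CPM with vehicle and 888, 555 and 659 CPM with bexarotene in young mice, 310.0, 319.9 and 468 CPM with vehicle and 520.4, 471 and 722 CPM with bexarotene in aged mice, and 114, 112 and 92.3 CPM with vehicle and 153, 89.2 and 208 CPM with bexarotene in aged mice with stroke. The groups were apart in young mice, nearly touched in aged mice and overlapped with stroke. Slc1a3 lost its call without aged bexarotene library 3 (adjusted p = 0.0503, edgeR with BH). It also lost it with no filter on low counts, with the replicate block and without the young or the aged libraries, with an adjusted p of up to 0.37 over all alternatives. All 12 heat shock genes lay below 0 with a median of -0.46. EdgeR called 0 of them, 10 had an unadjusted p under 0.05, and Dnajb1, a co-chaperone, had the lowest adjusted p (0.0642, log2 fold change -0.64 ± 0.17). DESeq2 called 3 of the 12 lower and limma voom 0. Of 18 interferon response genes 0 were called by edgeR and 2 by limma voom (lower), 1 had an unadjusted p under 0.05, and the median was -0.06.

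Other lists held 1 or 2 calls, while 2.06% of all genes tested were called in either direction. Hbegf and Pdgfa (0.53 ± 0.13) rose among 13 genes of alternative activation and repair, Nrros (-0.27 ± 0.06), which holds latent TGF-beta on microglia, was the 1 fall beside 1 rise among 14 genes of TGF-beta signalling, and Sema4c (0.57 ± 0.14) rose and the semaphorin receptor gene Nrp2 (-0.45 ± 0.08) fell among 12 semaphorin genes and receptors. Pdgfa, Nrros and Sema4c lost their call in 11, 8 and 11 of the 18 fits without 1 library, with adjusted p of up to 0.0711, 0.0645 and 0.0866 (without aged bexarotene library 2, without aged vehicle library 3 and without young vehicle library 2). Osgin1 (1.0 ± 0.18) rose among 13 NRF2, heme and iron genes and C5ar1 (0.37 ± 0.09), the C5a receptor, among 13 complement genes. Nupr1 (-0.34 ± 0.09) fell among 15 genes of the integrated stress response and Pfkfb3 (-0.28 ± 0.07) among 15 of glycolysis. C5ar1, Nupr1 and Pfkfb3 lost their call in 11, 14 and 7 of those fits, with adjusted p of up to 0.0781, 0.0979 and 0.0665 (without aged bexarotene library 3, without aged bexarotene library 2 and without young vehicle library 3, edgeR with BH). In all, 33 of the 320 called genes were in any of the 41 lists, and 287 were in no list. This describes only how much the lists cover, since the share of all tested genes in a list is not given here.

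**Figure D4:**
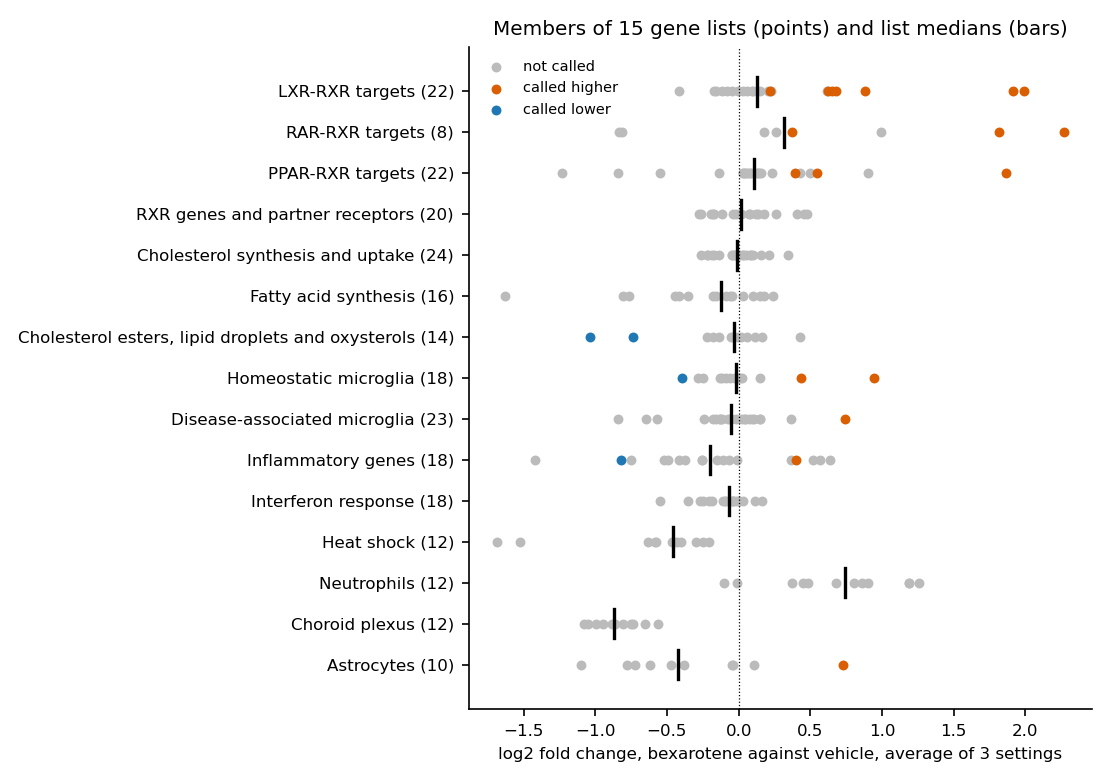
Log2 fold change of bexarotene against vehicle (average of 3 settings) for the measured members of 15 gene lists, with the number measured in brackets; orange and blue points passed the test and bars are list medians. LXR-RXR targets hold 7 orange points beside many near 0, while the heat shock and choroid plexus members all lie below 0 and none passed the test.

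Each setting was then read as a check on the other 2, a reading chosen after the data were seen. Genes were called from the libraries of 2 settings. Their sign was read in a separate fit of the 6 libraries of the setting left out, which share no library with the call. Only genes that had passed the filter over all 18 libraries entered here. The fits without 1 setting described earlier filtered all genes anew, so their counts differ. They called 47 rises and 4 falls without the young libraries, and 74 and 18 without the aged libraries. Of 38 rises called without the young libraries, all 38 were above 0 in young mice, and 35 had an unadjusted p under 0.05 there. All 3 falls were below 0 with such a p. Of 65 rises called without the aged libraries, 64 were above 0 in aged mice, and 24 of 27 falls were below 0. Of 182 rises called without the stroke libraries, 160 (87.9%) were above 0 with stroke and 72 (39.6%) had an unadjusted p under 0.05. For 107 falls these counts were 89 (83.2%) and 20 (18.7%). Over all genes tested, the sign in the setting left out was the same as in the other 2 for 56.4% to 61.7% of genes, and 3.81% to 6.77% also had an unadjusted p under 0.05. The median log2 fold change of the 182 rises was 0.57 in the other 2 settings and 0.29 with stroke.

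**Figure D5:**
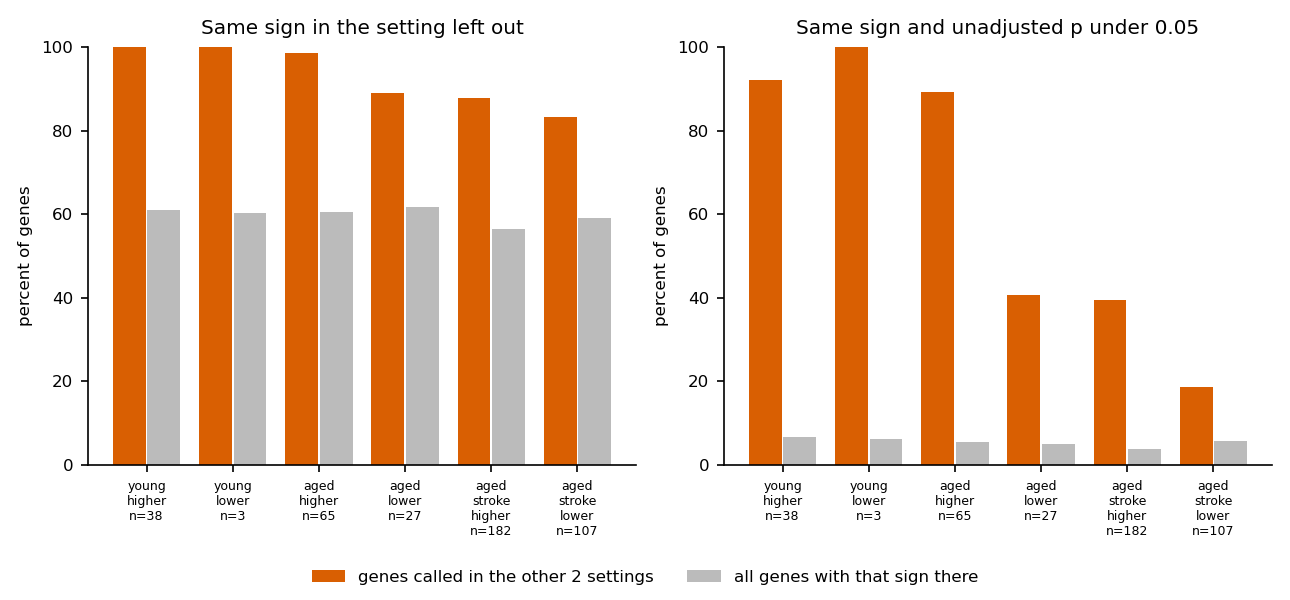
Share of genes called from 2 settings (orange) that had the same sign in the setting left out (left), and that also had an unadjusted p under 0.05 there (right), beside all genes with that sign (grey); n is the number of genes called. The orange bars reach 83.2% to 100% at left against 56.4% to 61.7% in grey, and the right panel falls to 18.7% for falls read with stroke.

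Over all 15528 genes the effects of 2 settings correlated weakly. Pearson's r of the log2 fold changes was 0.19 between young and aged, 0.24 between young and aged stroke and 0.17 between aged and aged stroke mice, and for the 9427 genes of at least 10 CPM it was 0.31, 0.36 and 0.26. These are descriptions across genes, which are not independent replicates, and the settings share no library.

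A test of the difference between settings called 0 genes (0%) by edgeR's quasi-likelihood interaction test with BH, with a smallest adjusted p of 0.624 and 578 genes (3.72%) at an unadjusted p under 0.05. DESeq2 called 16 and limma voom 0. Among the 320 genes of the common effect, 40 had such an unadjusted p. For the called rises the median log2 fold change was 0.66 in young, 0.55 in aged and 0.41 in aged stroke mice, and the stroke value was the smallest of the 3 in 129 of 201. Among the falls the medians were -0.42, -0.33 and -0.32, and the stroke value was nearest to 0 in 60 of 119. The lowest unadjusted interaction p among the named genes was that of Abcg1 (4.97e-05), followed by Eepd1 (4.03e-04) and Cd38 (8.04e-04), and their adjusted p-values were 0.624 or higher. Since none of these genes was called, these values do not show that the effect of bexarotene differed between settings.

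The authors' deposited tables list genes changed by bexarotene within each setting: 197 in young, 149 in aged and 96 in aged stroke mice. Of these, 135 (68.5%), 89 (59.7%) and 45 (46.9%) were called in the common effect in the same direction. They share all libraries with it, so this is no independent check. Of the 320 common calls, 150 were in none of the authors' deposited tables, 77 of them rises and 73 falls. The 21 genes in all 3 of the authors' deposited tables included Abcg1, Abca1, Mylip, Eepd1, Camkk1 and St3gal5, and 2 falls, Gpr183 and Hcar2.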

How the data were processed

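RNA was sequenced from CD11b-selected brain cells in 18 libraries, made with SMART-Seq v4 PLUS per the labels' protocols. The authors deposited whole-number counts per gene and their own tables of comparisons. Those tables hold a log2 fold change, a p-value with its adjusted value, and a mean of normalised counts (baseMean, a signal), per the file headers, and every gene listed in the authors' deposited tables has an adjusted p below 0.05. The submitters' processing notes name build GRCm39 and the tools R 4.4.2, GATK, STAR 2.7.10a and Trimmomatic 0.40. The roles of these tools, the annotation and the strand setting are not stated in the sources used here.

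Gene symbols came from GENCODE M21 (build GRCm38), used for names only, which named 52029 of 57010 genes. The authors' deposited tables named 2 more. The 4979 without a symbol held 0.327% of counts and were tested under their identifiers. Where identifiers shared a symbol, the one with most counts kept it.

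The test was that of edgeR 4.0.16 (R 4.3.3, limma 3.58.1): filterByExpr over the 6 groups, TMM scaling, and a robust quasi-likelihood fit with setting as block and drug as tested factor (14 residual degrees of freedom; common dispersion 0.194 as a square root). Single settings and the interaction came from a model of 6 group means (12 residual degrees of freedom). All p-values were BH adjusted over 15528 genes, with a threshold of 0.05. Fold changes are log2 with an SE from the F statistic. They measure the spread between these samples. The procedure was tested on simulated data in which the effect did not differ between settings. It recovered 64% of 100 genes changed 1.5-fold and 81% of 100 genes changed 2-fold, and called 3 unchanged genes. Simulated counts were drawn independently for each gene and library. Variation shared between genes, such as that by replicate number or by marker cells, was not simulated. These shares therefore describe data without it.

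Totals of 7582511 to 29359943 counts put 3 counts at 0.102 to 0.396 CPM, a floor that covers counting error only. Replicate pairs differed by more than sampling noise (chi-square per degree of freedom 5.77 to 36.2), so each library counted once. Every column of the count table was mapped to a sample.

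Named genes were the 15 largest rises and 15 largest falls that were called, had 1 sign in the 3 settings and reached 10 CPM, the members of lowest p, 4 at most, in any list with at least 2 calls, 17 fixed genes, the 8 of each sign with the lowest p among genes called in no single setting, and genes in all 3 of the authors' deposited bexarotene tables. Genes named outside this rule (single calls of a list, antisense partners, near-identical copies, low-count falls, Cttnbp2nl, Scd2 and Fasn) were chosen after their values were seen. Some genes that the rule names are not reported here. Members and lists were chosen with earlier results of these data known. Lists are described by counts and medians, without a test of the list. Alternatives were DESeq2 1.42.0, limma voom, RLE scaling, other filters, a replicate block, marker covariates, and fits without single libraries or settings. Fits without all libraries of 1 number, and the reading in a setting left out, were added after the data were seen.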

Additional observations from a re-analysis of the deposited data

How the results depend on the processing

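The common effect called 320 genes. DESeq2 called 509 (269 higher, 240 lower), the choroid plexus covariate gave 497, and fits without the young or the aged libraries gave 51 and 92, with fewer samples in each. Fits without all libraries numbered 1, 2 or 3, chosen after seeing the data, gave 187, 156 and 46. RLE scaling, the other filters, equal weights, limma voom, the neutrophil covariate and the fit without stroke libraries gave 272 to 365. Leaving out 1 library gave 209 to 308 genes for the common effect, 27 to 87 in young, 9 to 41 in aged and 1 to 17 in aged stroke mice, and 0 for the difference between settings. The cause of these shifts was not tested.

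In young, aged and aged stroke mice, DESeq2 called 210, 97 and 59 genes, and the fit with no filter 457, 339 and 419. Limma voom called 18 in aged and 29 in aged stroke mice, and RLE scaling 24 in aged mice. Without libraries numbered 1 these counts were 17, 26 and 3, without those numbered 2 they were 35, 8 and 0, and without those numbered 3 they were 5, 3 and 1. The difference between settings had 16 calls by DESeq2 and 353 with no filter. The cause was not tested.

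The replicate numbers were tried as a block within each setting, which paired each vehicle library with the bexarotene library of its number. A block by number shared across the settings was not fitted. Same-numbered libraries correlated by -0.186 to 0.336, over 0.1 in 5 of 9 pairs, so they were not taken as paired. In young mice all 3 pairs were over 0.1 (0.202 to 0.336), and 12 of 18 libraries correlated best with their own number. On the first component within groups (23.3% of that variance), all 6 libraries numbered 1 lay below 0 and all 6 numbered 2 above. With the replicate block 285 genes were called (185 higher, 100 lower), 240 of them shared with the 320, and 71 in young mice. Among named genes the block ended the calls of Ccl6, Crybb1, Gbp5, Gm8995, Nupr1, Sema4c, Slc1a3 and Zfp658 (adjusted p 0.0554 to 0.0861, edgeR with BH).

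None of the 79 named genes that were called changed sign under the alternatives run, and the call was lost in 357 of 2591 gene and alternative pairs. Uncalled genes changed sign near 0. Apoe was at -0.0133 without the young libraries and -0.0293 without those numbered 1. Rxrb was at -0.00253 with no filter, -0.0299 without the stroke libraries, -0.0366 without those numbered 1, and -0.0178 to 0.0346 with 1 library left out. Trem2 was at -0.0211 without the stroke libraries, -0.0236 without those numbered 1, and -0.00145 to 0.0649 with 1 library left out. Nr1h3 was at 0.176 without those numbered 3. Fasn was at 0.0785 without the young libraries, 0.0604 without those numbered 2, 0.0330 by limma voom, and -0.119 to 0.0721 with 1 library left out. These are log2 fold changes.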
